A study of Rattus norvegicus with 6 samples.

Results

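The genes described here are 31 rat genes of fatty acid oxidation and of PPAR-alpha, measured in renal cortex with and without exposure to dipropylene glycol (DPG), a glycol used as a solvent and humectant. A probe of the array belonged to the set where the RefSeq transcript it carries, with the version dropped, belongs to a listed gene, which gave 48 probes of 61537 and 31 genes of the 15645 named on the array. The genes were 16 mitochondrial enzymes, 6 peroxisomal enzymes, 4 genes of fatty acid uptake, binding and activation, and a remaining group of 5, PPAR-alpha itself (Ppara) and 4 of its other targets. The 6 animals were male Sprague-Dawley rats of the Crl:CD(SD) stock, bought at 5 weeks of age and kept on a basal diet. The 3 rats of the control group received water for 4 weeks, and the 3 rats of the DPG group received 1000 mg/kg of DPG a day for 4 weeks, by a route not given in the sources used here. Each rat gave total RNA from renal cortex, a mixture of all cortical cell types, which was labelled with Cy3 and hybridised to 1 single-colour Agilent array. Each level below is the log2 signal of a probe minus the 75th percentile of log2 signal on its array, so that 0 is the level of that percentile. A log2 fold change is the mean of the 3 DPG arrays minus the mean of the 3 water arrays, and it stands with the standard error from limma.

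Fatty acids enter a cell through carriers such as CD36, are bound by small cytosolic proteins and are joined to coenzyme A by acyl-CoA synthetases. The carnitine shuttle then carries long chains into mitochondria, where beta-oxidation shortens them stepwise and passes electrons to the respiratory chain, while peroxisomes shorten very long, branched and dicarboxylic chains. Proximal tubule cells of the renal cortex draw much of their energy from this pathway, and PPAR-alpha, a nuclear receptor that binds DNA as a heterodimer with a retinoid X receptor and is activated by fatty acids, switches on many of its genes.

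All 48 probes were well above background on all 6 arrays, and every gene of the set was therefore tested. The arrays had between 39556 and 43184 probes well above background and 0 saturated spots. The third water array had the fewest, and 34 of its spots carried outlier flags against 0 to 4 on the others. The water arrays were all on one slide and in one scan and the DPG arrays on another, so that treatment, slide and scan cannot be told apart. The replicates are separate animals. The tubule cells that carry out fatty acid oxidation were represented: all 9 markers of the proximal tubule as a whole, all 10 of its convoluted part and 9 of 10 of its straight part had a measured probe. Over all 29647 features tested, 0% (0 features) passed an adjusted p of 0.05 by limma with Benjamini-Hochberg adjustment, and the smallest adjusted p was 0.125. At an unadjusted limma p under 0.05, 3669 features differed.

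No gene of the set passed the adjusted threshold, and the fold changes were small, from -0.54 to 0.16. At an unadjusted limma p under 0.05, 6 of the 31 genes (19.4%) were lower with DPG, against 5.7% of all features, and 0 were higher, against 6.68% of all features. The 6 were Vnn1, Ehhadh, Eci1, Plin2, Cpt2 and Acsl1. Leaving out the second DPG array reduced this count to 3, namely Vnn1, Eci1 and Plin2, and with each of the other arrays left out it lay between 4 and 6. Over all features, 2569 to 3942 differed in either direction at that threshold with 1 array left out. Without the second DPG array Crot, and without the third Acadm, was higher at that threshold. In 7 genes (22.6%) every DPG array was below every water array, the 6 above and Eci2, against 8.96% of all features. The reverse order held for 1 gene, Acadm, where 10.7% of all features showed it. The median log2 fold change was -0.069 over the 31 genes and 0.003 over all features, and 22 of the 31 genes lay below 0, against 49.2% of all features. In these bulk samples, fewer cells of a type and less RNA per cell cannot be told apart. The genes, and the lists below, were chosen with earlier results of these data known. The shares set against all features therefore describe these data and are no independent evidence.

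**Figure D1:**
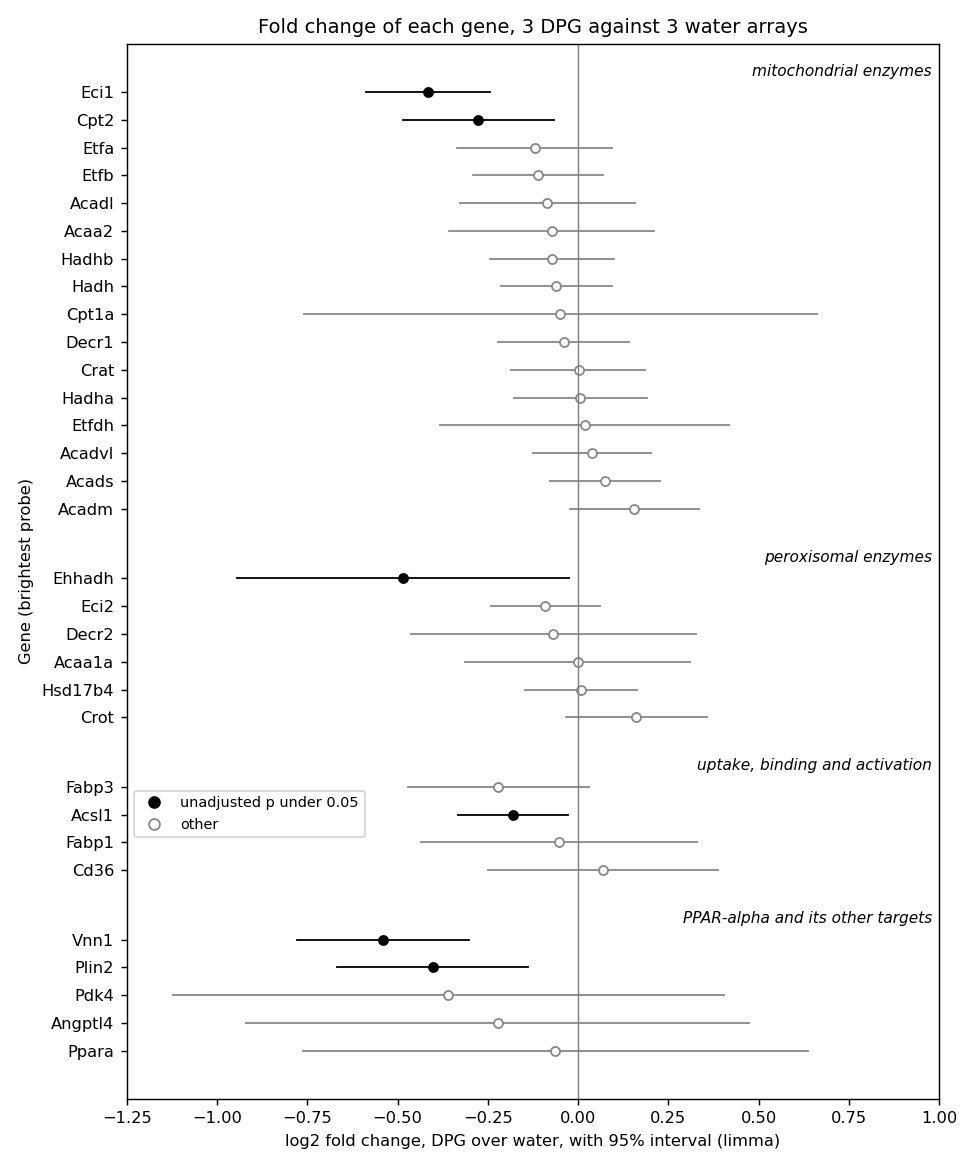
Log2 fold change, DPG over water, of each of the 31 genes (1 probe a gene, ordered by role and by size), with the 95% interval from limma as a horizontal line; filled points mark an unadjusted p under 0.05. All 6 filled points lie left of 0, and 23 of the 31 intervals lie wholly within 0.5 of 0.

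Among the 16 mitochondrial enzymes, 2 (12.5%) were lower at an unadjusted p under 0.05, against 5.7% of all features, 0 were higher, against 6.68%, and the median log2 fold change was -0.055. Without the third DPG array that median was -0.0051, and without array 2 or array 3 of either group the count of lower enzymes was 1. Eci1, an enoyl-CoA isomerase that moves the double bond of unsaturated fatty acids so that oxidation can go on, had levels of 6.40, 6.38 and 6.35 on the water arrays and 6.03, 5.98 and 5.87 on the DPG arrays. The water arrays lay close together, and all 3 DPG arrays lay below them by more than the spread within either group. Eci1 thus had a log2 fold change of -0.42 ± 0.07 (1.33-fold lower, 95% interval -0.59 to -0.24), with a limma p of 0.00107 and an adjusted p of 0.214. Its p was at most 0.00566 under every alternative setting and with any single array left out.

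The promoter of Eci1 is shown because it is the mitochondrial gene with the smallest p and its window holds a receptor hexamer. The window runs from 250 bases before to 50 bases after the transcription start in RefSeq's GRCr8 assembly. A copy of AGGTCA, the hexamer bound by nuclear receptors, reads on the opposite strand 94 to 89 bases before the start (capitals, chr10:13961136-13961181, the gene on the plus strand).
Eci1: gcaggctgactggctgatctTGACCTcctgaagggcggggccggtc
Among all promoter windows of this length, 5415 of 33469 (16.2%) hold AGGTCA on either strand. Of the 31 genes, 27 had a window in the table, and 6 of these (22.2%) hold it: Acadvl, Eci1, Eci2, Fabp1, Hadhb and Hsd17b4. Of these 6, Eci1 alone was lower at an unadjusted p under 0.05. A match describes the letters only and is no evidence of binding.

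Cpt2, the inner-membrane carnitine palmitoyltransferase that releases acyl-CoA into the matrix, stood at 3.12, 3.33 and 3.27 with water and at 3.06, 2.92 and 2.91 with DPG. The groups did not overlap, though the first array of each group differed little. Between the groups the difference was -0.28 ± 0.08 in log2 (1.21-fold lower, 95% interval -0.49 to -0.07), with a limma p of 0.0176 and an adjusted p of 0.327. The p of Cpt2 passed 0.05 with array 2 or array 3 of either group left out and reached 0.0582 at most over all settings.

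For the other genes of the carnitine shuttle the groups overlapped. Cpt1a, the outer-membrane palmitoyltransferase that controls entry of long chains into mitochondria, stood at 2.69, 3.18 and 2.79 with water and at 3.22, 3.07 and 2.22 with DPG. Its highest and its lowest value were both on DPG arrays, and the log2 fold change of -0.05 ± 0.29 had an interval from -0.76 to 0.66. Without the third DPG array it was 0.26. It was the widest interval of the 16 mitochondrial enzymes. Crat, which moves acetyl groups between coenzyme A and carnitine, had a log2 fold change of 0.001 with a narrow interval of -0.19 to 0.19.

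Acadm, Acadvl, Acadl and Acads are acyl-CoA dehydrogenases, which take the opening step of each beta-oxidation cycle, and of these 4 Acadm, for medium chains, was the only one whose groups did not overlap. It stood at 6.52, 6.58 and 6.49 with water and at 6.71, 6.75 and 6.59 with DPG. All 3 DPG arrays were higher, by a margin at the closest pair of arrays that was small, and the log2 fold change was 0.16 ± 0.07 (95% interval -0.02 to 0.33, limma p 0.0753, adjusted p 0.453). Acadvl and Acadl, for very long and long chains, and Acads, for short chains, had log2 fold changes of 0.04, -0.09 and 0.07, with overlapping groups in each. The intervals ran from -0.12 to 0.20 for Acadvl, from -0.33 to 0.16 for Acadl and from -0.08 to 0.23 for Acads. The electron transfer flavoprotein and its oxidoreductase carry the electrons of these dehydrogenases to ubiquinone. Its subunits Etfa and Etfb had log2 fold changes of -0.12 and -0.11, and Etfdh had 0.02.

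For the genes of the later steps of the mitochondrial cycle the groups overlapped on the brightest probe, and none had an unadjusted p under 0.05. Hadha, the alpha subunit of the trifunctional protein, which hydrates and oxidises long-chain intermediates, stood at 3.10, 3.27 and 3.09 with water and at 3.20, 3.13 and 3.15 with DPG. The DPG values lay inside the range of the water values, and the log2 fold change was 0.006 ± 0.075 (95% interval -0.18 to 0.19). The 3 probes of Hadha ranged from -0.14 to 0.006. Hadhb, the beta subunit with the thiolase activity, had -0.07, Hadh, the dehydrogenase for shorter chains, -0.06, and the thiolase Acaa2 -0.07. A second, dimmer probe of Acaa2 gave -0.26 ± 0.12 (limma p 0.0729), with all 3 DPG arrays below the water arrays. The groups also did not overlap on the Hadha probe at -0.14. Decr1, the dienoyl-CoA reductase that serves polyunsaturated chains alongside Eci1, had -0.04 (95% interval -0.22 to 0.14). Of the 16 mitochondrial intervals, 14 stayed within 0.5 on the log2 scale on either side of 0.

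Among the 6 peroxisomal enzymes, 1 (16.7%) was lower at an unadjusted p under 0.05, against 5.7% of all features, and 0 were higher, against 6.68%. The median log2 fold change was -0.035. The sign of that median turned with the third DPG array left out, when it was 0.023, and the count of lower enzymes was 0 without the first or the second water array or the second DPG array. Ehhadh, the bifunctional enzyme of the peroxisomal cycle that acts on dicarboxylic acids and is a classical PPAR-alpha target in rat liver, stood at 3.25, 3.30 and 2.84 with water and at 2.81, 2.32 and 2.81 with DPG. The second DPG array was far below the rest, and the third water array came within a narrow margin of the other DPG arrays. Ehhadh had a log2 fold change of -0.48 ± 0.19 (1.40-fold lower, 95% interval -0.94 to -0.03), with a limma p of 0.0416 and an adjusted p of 0.392. Without the second DPG array the log2 fold change was -0.32, and over all settings the p of Ehhadh reached 0.119.

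The other 5 peroxisomal enzymes had smaller fold changes, none with an unadjusted p under 0.05, and their difference from Ehhadh was not tested. Acaa1a, the peroxisomal thiolase, stood at 6.22, 6.21 and 6.63 with water and at 6.40, 6.32 and 6.33 with DPG. The third water array was the highest of all, the other water arrays were the lowest, and the log2 fold change was -0.001 ± 0.13 (95% interval -0.31 to 0.31). The 3 probes of Acaa1a ranged from -0.16 to -0.001. Hsd17b4, the bifunctional enzyme for branched chains, had 0.009 (95% interval -0.15 to 0.16). Eci2, the peroxisomal counterpart of Eci1, stood at 4.94, 4.96 and 5.02 with water and at 4.88, 4.91 and 4.86 with DPG, with a log2 fold change of -0.09 ± 0.06. Its groups did not overlap, but the limma p was 0.191. Decr2, the peroxisomal dienoyl-CoA reductase, had -0.07 (95% interval -0.46 to 0.32). Crot, the carnitine octanoyltransferase that exports shortened chains to mitochondria, had 0.16 (95% interval -0.04 to 0.36, limma p 0.0907).

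**Figure D2:**
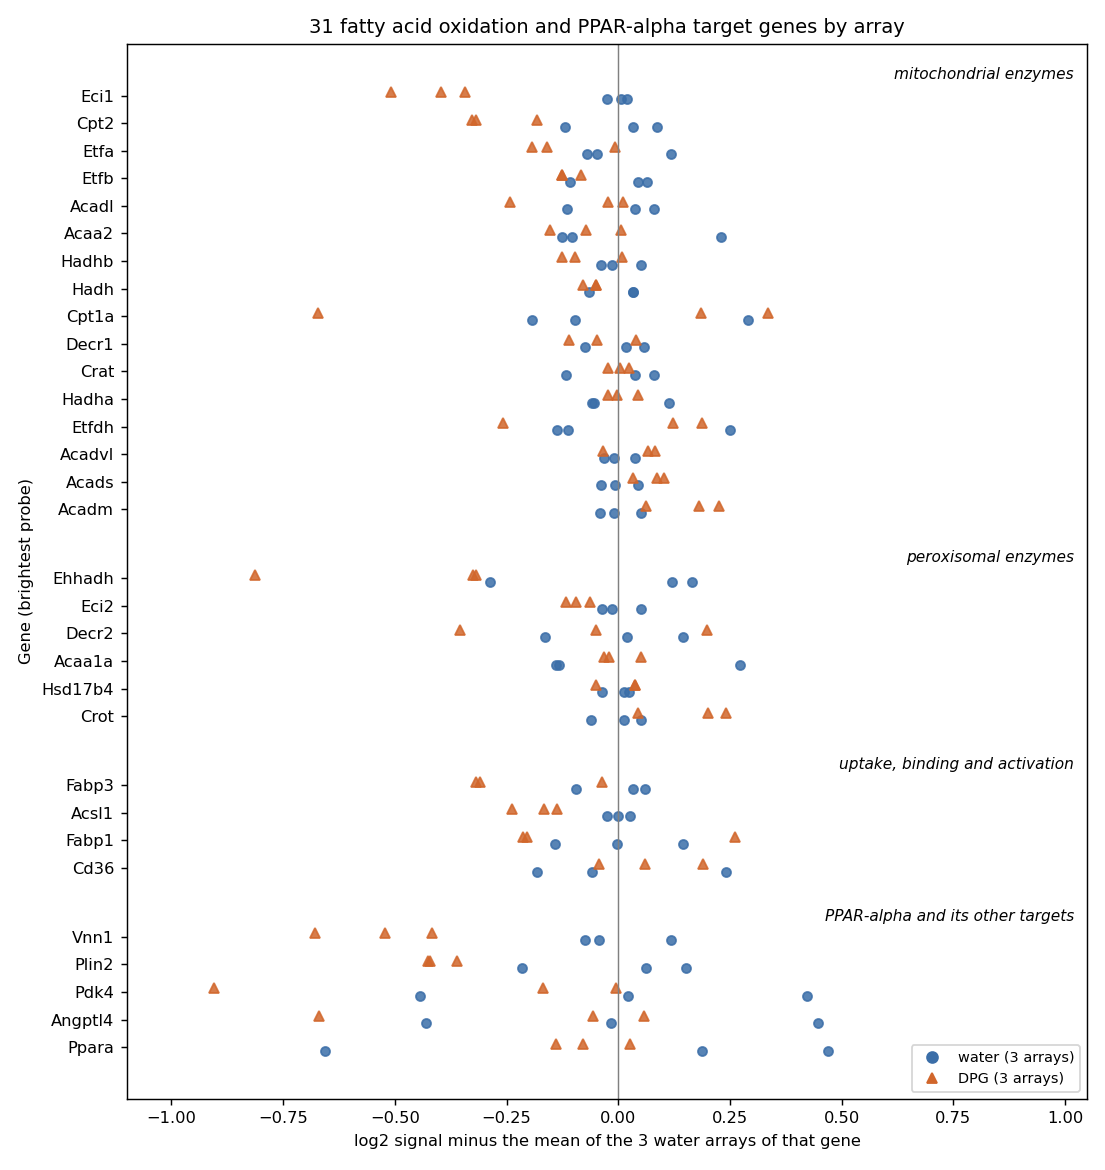
Level of each of the 31 genes on each array, as log2 signal minus the mean of that gene's 3 water arrays (circles, water; triangles, DPG). For Eci1, Vnn1 and Plin2 all 3 triangles lie clearly left of the circles, while Cpt1a, Pdk4, Angptl4 and Ppara are spread widely in 1 or both groups.

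Of the 4 genes of uptake, binding and activation, 1 (25%) was lower at an unadjusted p under 0.05, against 5.7% of all features, and the median log2 fold change was -0.12. Without the third DPG array 2 were lower, Acsl1 and Fabp3, with a median of -0.21, and without the first the median was -0.064. Acsl1, the long-chain acyl-CoA synthetase that activates fatty acids, stood at 5.39, 5.37 and 5.42 with water and at 5.16, 5.23 and 5.26 with DPG. Both groups were tight, with a within-group SD of 0.04, and they did not overlap. Acsl1 had a log2 fold change of -0.18 ± 0.06 (1.13-fold lower, 95% interval -0.33 to -0.03), with a limma p of 0.0282 and an adjusted p of 0.357. All 4 probes of Acsl1 lay below 0, from -0.30 to -0.18. Its p passed 0.05 with any array but the third DPG array left out, reaching 0.0903.

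Fabp3, the heart-type fatty acid binding protein, had a log2 fold change of -0.22 ± 0.10 (limma p 0.0743). On the third DPG array its level of 4.41 lay within the water range of 4.35 to 4.50, and on the other DPG arrays it was 4.13. Cd36, the fatty acid translocase of the plasma membrane, stood at 2.43, 2.73 and 2.31 with water and at 2.55, 2.68 and 2.45 with DPG. Its groups overlapped fully, with a log2 fold change of 0.07 ± 0.13 (95% interval -0.25 to 0.39).

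Fabp1, the liver-type binding protein that carries ligands to PPAR-alpha, was dim, between -3.94 and -3.47 on the 6 arrays. The log2 fold change of Fabp1 was -0.05 (95% interval -0.43 to 0.33), and -0.195 on a second probe. Its promoter is shown because it is the only one of the 27 windows with a DR1 element, the pair of hexamers with a spacer of 1 base that binds PPAR-alpha with its partner. The element was searched on both strands as AGGNCA, then any base, then AGGNCA again. It reads on the opposite strand 77 to 65 bases before the start (capitals, chr4:104749243-104749295 of GRCr8, the gene on the plus strand, sequence from RefSeq), and the hexamer counted in Fabp1 above is part of it.
Fabp1: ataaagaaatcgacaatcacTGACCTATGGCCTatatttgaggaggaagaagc
Among all promoter windows, 139 of 33469 (0.415%) hold this element. The other windows, which lack these letters, say nothing about where the receptor binds, since elements can lie outside a window of 300 bases or depart from these letters.

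In the remaining group all 5 genes lay below 0, 2 of them (40%) at an unadjusted p under 0.05, against 5.7% of all features, and the median log2 fold change was -0.36. That median was -0.087 with the third DPG array left out. Vnn1, vanin 1, a pantetheinase of the cell surface that is a PPAR-alpha target, stood at 4.16, 4.35 and 4.19 with water and at 3.71, 3.55 and 3.81 with DPG. All 3 DPG arrays lay well below the lowest water array. The log2 fold change was -0.54 ± 0.10 (1.45-fold lower, 95% interval -0.78 to -0.30), with a limma p of 0.00149 and an adjusted p of 0.214, and its p was at most 0.0102 under every alternative setting and with any single array left out.

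Plin2, perilipin 2, which coats lipid droplets, stood at 4.73, 4.82 and 4.45 with water and at 4.30, 4.24 and 4.24 with DPG. The DPG arrays were nearly equal, and the third water array was the closest to them without reaching them. Plin2 had a log2 fold change of -0.40 ± 0.11 (1.32-fold lower, 95% interval -0.67 to -0.14), with a limma p of 0.00997 and an adjusted p of 0.293. It ranged from -0.51 to -0.33 over the settings, with a p of at most 0.0354.

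Pdk4, the pyruvate dehydrogenase kinase that spares glucose when fat is burned, stood at -2.63, -2.23 and -3.10 with water and at -2.82, -2.66 and -3.56 with DPG. Angptl4, a secreted inhibitor of lipoprotein lipase, stood at 4.01, 4.48 and 3.60 with water and at 4.09, 3.97 and 3.36 with DPG. In both genes the second water array was the highest and the third DPG array the lowest, and the groups overlapped. The log2 fold changes were -0.36 ± 0.31 for Pdk4 (95% interval -1.12 to 0.40) and -0.22 ± 0.28 for Angptl4 (95% interval -0.92 to 0.47). With 1 array left out Pdk4 ranged from -0.58, without the third water array, to -0.087, without the third DPG array.

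Ppara, the receptor itself, stood at 0.05, -1.07 and -0.23 with water and at -0.39, -0.50 and -0.56 with DPG. The second water array was the lowest and the first the highest, and the DPG arrays lay between them. The log2 fold change of -0.06 ± 0.29 had an interval from -0.76 to 0.64, and the 2 probes of Ppara gave -0.06 and 0.03. Single water arrays decided its value: Ppara was at -0.39 without the second (limma p 0.0211) and at 0.26 without the first. These 6 arrays gave no stable direction for the receptor's own RNA.

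**Figure D3:**
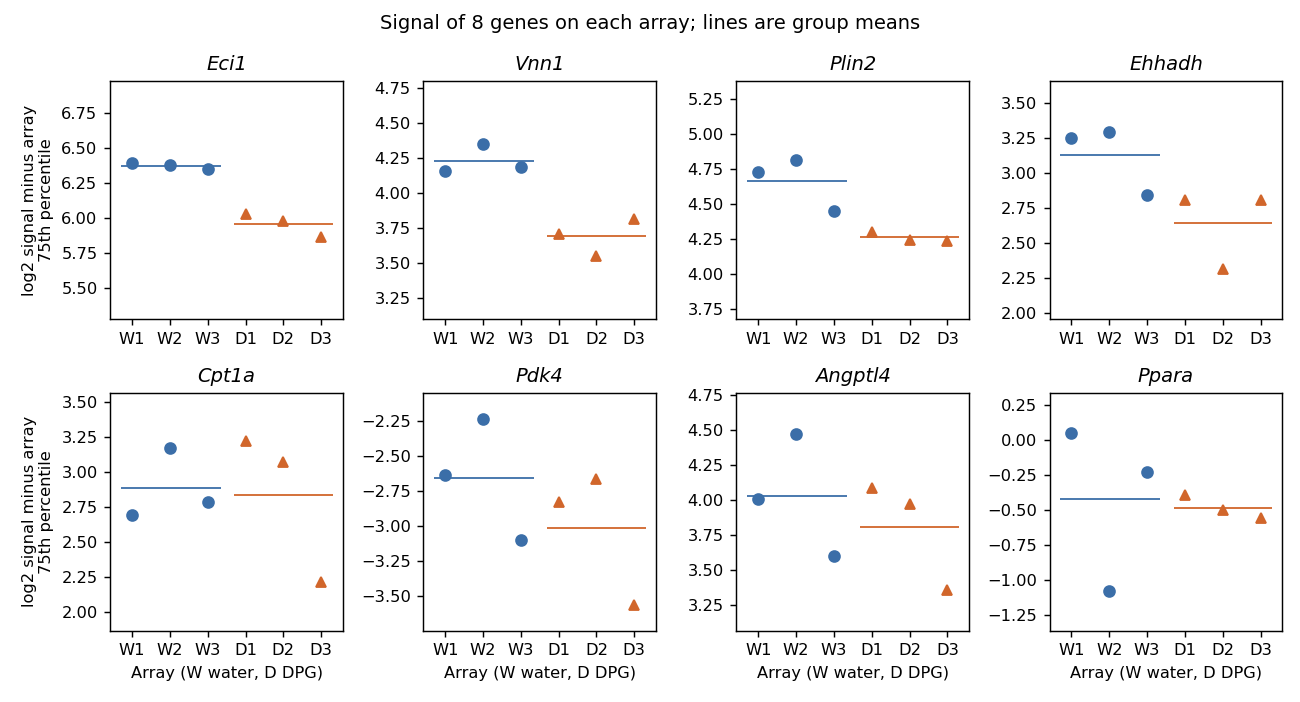
Level on each array of 8 genes (W1 to W3, water; D1 to D3, DPG; vertical axis, log2 signal minus the array's 75th percentile, spanning the same range in each panel; lines, group means). In Eci1, Vnn1, Plin2 and Ehhadh the DPG arrays lie below the water arrays, while in Cpt1a, Pdk4, Angptl4 and Ppara the animals of a group differ by more than the group means do.

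The genes differed in how steady they were between animals. The median within-group SD of the 31 genes was 0.10 on the log2 scale, against 0.138 over all features. For 4 genes the within-group SD was above that of more than 80% of features: Pdk4 (0.457), Cpt1a (0.424), Ppara (0.418) and Angptl4 (0.416). In Cpt1a, Pdk4 and Angptl4 the second water array was the highest of its group and the third DPG array the lowest of all. Enzymes such as Eci2 (0.037), Acads (0.039), Hadh (0.042) and Hsd17b4 (0.042) varied little. The mean difference from the water mean over the 31 genes was -0.062 on the first, -0.09 on the second and -0.184 on the third DPG array. On the water arrays it was -0.01, 0.052 and -0.042, so the first DPG array lay close to the third water array. Over the 16 mitochondrial enzymes it was -0.032, 0.048 and -0.016 with water and -0.006, -0.025 and -0.158 with DPG. Only the third DPG array lay outside the water range there.

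Taking both organelles as one group, 3 of the 22 oxidation enzymes (13.6%) were lower at an unadjusted p under 0.05, against 5.7% of all features, with a median of -0.055. Of the 9 other genes of the set, 3 (33.3%) were lower, with a median of -0.22. The difference between these groups of genes was not tested. Where a gene had several probes, which was so for 12 genes, the probes all lay below 0 in 6, all above 0 in 1 and on both sides in 5.

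The rest of the pathway was read from a list of 38 further genes of fatty acid oxidation, of which 34 were measured. At an unadjusted p under 0.05, 1 was lower and 1 was higher (2.94% each), against 5.7% and 6.68% of all features. The median log2 fold change was -0.007, with a sign that turned under median scaling and without the second water array (0.007). The count of lower genes was 3 without the third DPG array and 0 without the third water or the first DPG array, and 2 were higher without the second water or the third DPG array. Acat1, the mitochondrial acetoacetyl-CoA thiolase of ketone metabolism, was the lower one, at -0.18 ± 0.06 (limma p 0.0303). Acsl5, an acyl-CoA synthetase, was the higher one, at 0.34 ± 0.10 (limma p 0.0126), with levels of 0.87, 0.94 and 0.77 with water and 1.30, 1.04 and 1.24 with DPG. Acadsb, the dehydrogenase for short branched chains, stood at -0.86, -0.87 and -0.93 with water and at -0.68, -0.66 and 0.32 with DPG. Its groups did not overlap, and the log2 fold change of 0.55 ± 0.28 (limma p 0.0968) was 0.22 without the third DPG array, which was far above the others.

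A list of 38 further PPAR-alpha targets, of which 34 were measured, had members in both directions. At an unadjusted p under 0.05, 6 were lower (17.6%, against 5.7% of all features) and 4 were higher (11.8%, against 6.68%), the median was -0.11, and 24 lay below 0. With any array left out 5 to 8 were lower, while the count of higher genes was 1 without the first water array, 2 without the third water array or the first or the second DPG array, and 3 otherwise. The lower genes with the smallest p were Creb3l3, a liver and gut transcription factor of lipid metabolism, at -0.77 ± 0.18 (limma p 0.00532, adjusted p 0.269), and the acyl-CoA thioesterases Acot4 and Acot5, at -0.38 ± 0.09 and -0.35 ± 0.08. Creb3l3 stood at 2.43, 2.72 and 2.60 with water and at 2.19, 1.62 and 1.62 with DPG, with no overlap. Cyp4a1, the omega-hydroxylase that takes the first step towards the dicarboxylic acids on which Ehhadh acts, had -0.50 ± 0.14 (limma p 0.0104).

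The levels of Cyp4a1 were 5.61, 5.31 and 5.36 with water and 4.92, 4.74 and 5.14 with DPG, and they did not overlap. Gpd1, named with the next 4 genes after their values were seen, was also lower, at -0.21 ± 0.08 (limma p 0.0417). Normexp background correction gave -0.10 for Gpd1 with a p of 0.261, and its p passed 0.05 with any array but the third water array left out. The higher genes were Ehd3, Me1, Gpt and Cidec, between 0.37 and 0.58. Me1, malic enzyme, supplies NADPH for fatty acid synthesis, and Cidec coats lipid droplets and also stood on the list of adipocyte markers.

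The partners and regulators of PPAR-alpha gave 20 measured genes of 24, with a median of -0.045. At an unadjusted limma p under 0.05, 0 were lower, against 5.7% of all features, and 2 (10%) were higher, against 6.68%. With 1 array left out up to 2 were lower, the 2 arising without the second or the third water array. Pparg, the related receptor of fat cells and 1 of the 2 higher genes, had 0.53 ± 0.15 (limma p 0.0116). Rxra, the partner of PPAR-alpha on DNA, had -0.26 ± 0.17 (-0.43 without the second and -0.095 without the third water array), and Ppargc1a, the coactivator of mitochondrial genes, had -0.23 ± 0.11, with overlapping groups in both.

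Other genes of the same organelles were set beside the enzymes. Of 25 genes of the respiratory chain, its ATP synthase and citrate synthase, 24 were measured, and all lay between -0.15 and 0.12. At an unadjusted limma p under 0.05, 0 differed in either direction, against 12.4% of all features, and 0 passed the adjusted threshold. Of the 15 peroxins, which assemble peroxisomes, 2 (13.3%) were lower, against 5.7% of all features, and 0 were higher, against 6.68%. Their median was -0.08. The lower ones were Pex26 at -0.23 and Pex10 at -0.17, and with any single array left out 1 peroxin was lower.

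Markers of the tubule segments that hold these enzymes also differed between the groups. All 10 measured markers of the convoluted proximal tubule lay below 0, against 49.2% of all features, with a median of -0.22. At an unadjusted p under 0.05, 4 of them (40%) were lower, against 5.7% of all features. Without the first or the third water array, or the first or the second DPG array, 2 of them were lower at that threshold. Their summed level, in units of the array's 75th percentile, was 1390 to 1521 on the water arrays and 1257 to 1370 on the DPG arrays, with no overlap. Of the 9 measured markers of the straight part, 8 (88.9%) were higher at an unadjusted p under 0.05, against 6.68% of all features. Their median was 0.43, with summed levels of 693 to 873 against 1054 to 1127. The 9 markers of all proximal segments had 1 lower (11.1%) and 2 higher (22.2%), against 5.7% and 6.68% of all features. Their summed levels were 510 to 556 against 552 to 576. Markers of other parts of the nephron differed too. In the thick ascending limb 4 of 6 markers (66.7%) were higher, against 6.68% of all features, with a median of 0.34. Their summed levels were 523 to 566 with water and 633 to 685 with DPG. In the distal tubule and collecting duct 3 of 10 (30%) were lower, against 5.7% of all features, with a median of -0.28. Summed levels there were 242 to 254 against 208 to 263. Of the 6 podocyte markers 3 (50%) were lower, against 5.7% of all features, with a median of -0.21. Their summed levels were 31.39 to 39.73 against 29.18 to 36.04. With 1 array left out the lower counts were 1 to 4 for the distal tubule and collecting duct (1 without the second or the third water array or the first or the third DPG array). They were 0 to 2 for podocytes, with 0 without the first water or the first DPG array. The part of these marker shifts in the results for the 31 genes was not tested. The marker lists, too, were chosen with earlier results of these data known, so their shares are descriptions only.

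Fat cells, which also express Plin2, Cd36, Acsl1 and Angptl4, were represented by a list of their own. Of 10 adipocyte markers 7 were measured. At an unadjusted limma p under 0.05, 1 was lower (14.3%, against 5.7% of all features) and 3 were higher (42.9%, against 6.68%). Adipoq, the fat cell hormone adiponectin, was lower (-0.45 ± 0.14), and Fabp4 at 1.89, Retn at 1.43 and Cidec at 0.56 were higher. Retn was well above background on 1 water array and 3 DPG arrays, so it entered through the DPG group. Its log2 fold change was as low as 0.37 under the alternatives. Fabp4 was dim and overlapped between the groups, at -4.74, -2.18 and -4.26 with water and -1.30, -2.45 and -1.77 with DPG. With 1 array left out the higher markers numbered 0 to 3, with 0 without the first or the third DPG array, and Lep was not well above background on any array. The summed level of the 7 was 9.83 to 11.67 with water and 10.82 to 12.64 with DPG, and overlapped between the groups. Their mean difference from the water mean did not overlap, at most 0.092 on the water arrays and 0.509, 0.173 and 0.616 on the DPG arrays. Fabp4 and Retn, both dim, had the largest fold changes and weigh most in that mean. Of the 7 markers 3 lay below 0 (Adipoq, Lipe and Cfd) and 4 above, and the median log2 fold change was 0.048. Of the 6 liver markers, 2 were measured, and Ttr was not well above background on any array. The part of other cell types in the levels of the 31 genes was not tested.

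**Figure D4:**
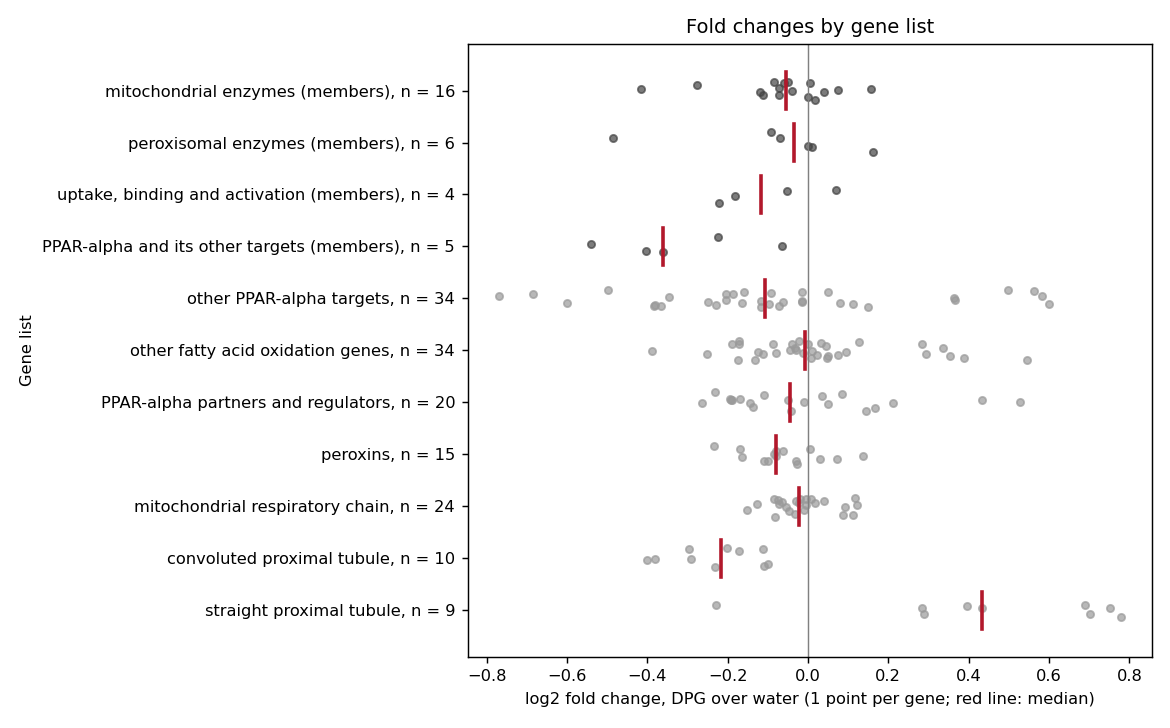
Log2 fold change, DPG over water, of every measured gene of each list (1 point a gene; red line, median). The 4 groups of the set have medians from -0.36 to -0.035, the respiratory chain genes, with citrate synthase among them, lie close to 0, and the markers of the convoluted and straight proximal tubule lie on opposite sides of 0 except for 1 gene.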

How the data were processed

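Arrays were scanned into 1 file each by Feature Extraction (10.7 per the submitters' processing notes, 10.7.1.1 per the file headers). Tests used the deposited processed signal, a linear intensity that was background-subtracted and spatially detrended, per the file headers, with no scaling between arrays. The authors' deposited table holds each spot's ratio to roughly that array's 75th percentile (column medians 0.110, 0.111, 0.114, 0.111, 0.108 and 0.112). Its ratios to the scanner values are constant within an array, and its scaling method is not stated there. It served as an alternative, and it had 0 unmapped columns.

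Log2 intensity had each array's 75th percentile subtracted. Control spots were left out. Probes entered when all 3 arrays of a group showed them well above background (40406 probes, of which 23 with an outlier flag were dropped). Probes were named by accession through RefSeq genes of GRCr8 (28206 matched 1 symbol, 33331 kept their identifier), and the brightest probe stood for a gene, which gave 29647 features. DPG and water were set against each other in R 4.3.3 with limma 3.58.1, by two-sided moderated tests without a trend (lmFit, then eBayes, on 4 residual and 1.95 prior degrees of freedom) and Benjamini-Hochberg adjustment. The fit was tested on simulated data. An exact permutation test of 3 against 3 cannot go below 0.1. The precision is limited by the number of arrays. The genes and lists were chosen with earlier results of these data known. Array values are given for genes at an unadjusted p under 0.05 and for Ppara, Cpt1a, Acadm, Hadha, Ehhadh, Acaa1a, Pdk4, Angptl4, Plin2 and Cd36. From each further list up to 4 genes by smallest p are named, and always Cyp4a1, Ppargc1a and Rxra. Single results of 3 genes that this rule takes are not reported here. Eci2 and Fabp3 were added after their values were seen.

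No pairing by replicate number was seen: the deviations of same-numbered arrays from their group means correlated at -0.023, -0.087 and -0.069. Differently numbered arrays gave -0.063 to 0.134. With 3 arrays a group, these correlations cannot exclude a shared litter or batch. Alternatives were background correction by normexp with an offset of 50, median and quantile scaling, 2 other filters, 2 other probe rules, an intensity trend with robust variance, array weights, the deposited table, the replicate number as a block, and each array left out. Keeping flagged spots was added after seeing the data.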

Additional observations from a re-analysis of the deposited data

How the results depend on the processing

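Of the 31 genes, 18 kept the sign of their fold change under all 17 alternatives, Vnn1, Eci1, Plin2, Cpt2, Acsl1 and Ehhadh among them, and 13, with fold changes between -0.22 (Angptl4) and 0.069 (Cd36), turned at least once. With normexp, Crat gave -0.041, Decr1 0.078, Etfdh -0.056 and Acaa1a 0.0065. Quantile scaling gave -0.0097 for Crat and -0.0098 for Hadha, the mean of a gene's probes -0.028 and -0.069, and median scaling 0.014 for Acaa1a. Array weights gave 0.038 for Cpt1a, -0.0027 for Crat and 0.023 for Acaa1a, and the deposited table -9.9e-05 for Crat. The cause was not tested. With 1 array left out, the log2 fold change ranged from -0.071 to 0.14 for Acaa1a, -0.14 to 0.042 for Acaa2, -0.44 to 0.00072 for Angptl4, -0.023 to 0.19 for Cd36, -0.24 to 0.26 for Cpt1a, -0.058 to 0.040 for Crat, -0.20 to 0.075 for Decr2, -0.067 to 0.15 for Etfdh, -0.21 to 0.028 for Fabp1, -0.023 to 0.063 for Hadha, -0.0096 to 0.037 for Hsd17b4 and -0.39 to 0.26 for Ppara. Over these fits the count of the 31 genes lower at an unadjusted p under 0.05 was 3 to 6, that of genes higher 0 to 1 (1 without the second or the third DPG array), and that of features called 0 to 1 (1 without the second water or the second DPG array). Further PPAR-alpha targets higher numbered 1 to 3, convoluted tubule markers lower 2 to 5, and the medians were -0.065 to 0.023 for peroxisomal enzymes, -0.21 to -0.064 for uptake genes and -0.51 to -0.087 for the remaining group. Testing every probe on its own, which has more items, gave 11 lower among further PPAR-alpha targets, 9 lower convoluted and 15 higher straight tubule markers, and 8 of 48 probes lower among the 31 genes. An intensity trend with robust variance gave 7 lower and 1 higher. The count over all features moved as well. In either direction, 2569 to 3942 features were at an unadjusted p under 0.05 with 1 array left out. The other alternatives, the test of every probe among them, gave 2987 to 5008, against 3669 in the main fit. Changes in the counts of the 31 genes are therefore not particular to these genes. With the replicate number as a block, 4 of the 31 genes were lower (Eci1, Vnn1, Plin2 and Pdk4), and 0 features passed the adjusted threshold. The slide as a block could not be fitted, since each slide held 1 group. With 3 arrays a group, the number of arrays limits what can be detected, and Fabp1 and Pdk4 are dim.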
